A study of Mus musculus with 2 samples.

Results

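The results concern 10 transcription factors of the cerebellar granule cell lineage, Atoh1, Barhl1, Barhl2, Pax6, Neurod1, Neurod2, Nhlh1, Nhlh2, Zic1 and Zic2, out of 32285 genes measured. They were chosen by name, for their place in this lineage and with earlier results of these data known, and every one was detected in both libraries. Single cells of whole mouse cerebella at E16.5, late in gestation, were profiled by droplet sequencing of transcript 3' ends, with a unique molecular identifier (UMI) on each captured molecule. Mutant embryos, with lesions in the cerebellum, combined Blbp-cre with the alleles Ctnnb1(ex3)fl/wt and Smarca4fl/fl. The Blbp promoter is active in neural progenitors, radial glia among them. Control embryos were cre-negative, and the sources used here do not say whether they carried floxed alleles. Each genotype was 1 library made from a pool of 3 samples, for which 40000 cells were loaded, so no spread between animals could be measured and no difference was tested. All intervals in brackets are 95% intervals for counting error only.

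Granule cells arise from the upper rhombic lip, whose progenitors are defined by the basic helix-loop-helix (bHLH) factor Atoh1, and move out to form the external granule layer, where Atoh1-positive precursors divide in response to sonic hedgehog. As precursors leave the cell cycle, Atoh1 is lost and Neurod1 and other neuronal bHLH factors come on, while Pax6 marks the lineage throughout. Unipolar brush cells and glutamatergic neurons of the cerebellar nuclei come from the same rhombic lip, so several of the 10 factors are shared with them. Among the 10, Atoh1 is the lineage-defining bHLH factor, and Neurod1, Neurod2, Nhlh1 and Nhlh2 are bHLH factors of neuronal differentiation. Barhl1 and Barhl2 are homeobox factors, Pax6 is a paired-box factor, and Zic1 and Zic2 are zinc finger factors that are also made by other dorsal neural progenitors and by the meninges.

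The cells kept were 15584 from the mutant and 15793 from the control library (median depth 9641 and 9963 UMIs). The libraries shared 123 barcode sequences, 61 of them among kept cells. Levels are given as CPM, the UMIs of a gene scaled to equal totals of the cells summed. Smarca4 stood at 49.2 CPM in all mutant cells and 67.9 CPM in all control cells, and at 68.0 and 70.5 CPM in the precursor-like cells described below, a ratio of 0.965 (0.806 to 1.15). In differentiating granule neuron-like cells it was 65.4 against 89.9 CPM (0.727, 0.624 to 0.843). Ctnnb1 was 172 against 118 CPM over all cells. The sources used here do not give which Smarca4 exons are floxed, and 3' tags of Ctnnb1 lie outside exon 3, so neither level checks the deletions. The 31377 cells formed 34 clusters, made without the 10 factors among the clustering genes. Of these, 5 were granule lineage-like, with 671 mutant cells (4.31% of the library) and 4887 control cells (30.9%). They were cluster 0 (granule cell precursor-like, led by Pvalb, Thsd7b and Mfap4), cluster 5 (cycling, with no name of its own because Tlx3 was among its leading genes), and clusters 3, 9 and 22 (differentiating granule neuron-like). The name of cluster 3 rests on 5 of the 12 neuron markers. All 12 summed to 1730 CPM in its mutant and 1879 CPM in its control cells. These sums were below those of cluster 0 (3161 and 3285 CPM) and cluster 5 (2513 and 2482 CPM). In cluster 9 the sums were 6152 and 6142 CPM. Cluster 4 was unipolar brush cell-like, led by Tac2 and Eomes. Clusters 1, 2 and 8 stayed unnamed; their Eomes, 103 to 181 CPM in the mutant library and 110 to 125 CPM in the control one, lay between that of cluster 4 (322 and 329 CPM) and those of the granule lineage-like clusters (at most 68.6 CPM for mutant and 50.9 CPM for control cells). Another 7 clusters are called mutant-dominated because their share of mutant cells was 5 or more times their share of control cells. They held 8911 mutant cells (57.2%) and 253 control cells (1.60%).

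The 10 genes lie on 8 chromosomes of GRCm38. Atoh1 (ENSMUSG00000073043) is a gene of 1 exon on chromosome 6, 64729125 to 64731245, plus strand. Neurod1 lies on chromosome 2 (79452521 to 79456751, minus strand), which also carries Barhl1 (28907679 to 28916668, minus strand) and Pax6 (105668900 to 105697364, plus strand). Nhlh1 is on chromosome 1 (172052292 to 172057573, minus strand) and Nhlh2 on chromosome 3 (102010076 to 102015492, plus strand). Neurod2 is on chromosome 11 (98325415 to 98329648, minus strand) and Barhl2 on chromosome 5 (106452523 to 106458166, minus strand). Zic1 is on chromosome 9 (91358058 to 91365810, minus strand) and Zic2 on chromosome 14 (122475435 to 122479852, plus strand).

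Promoter sequences of 4 factors are shown for their courses from Atoh1-positive to Neurod1-high cells, as given below: Nhlh1, Neurod2 and Nhlh2 had the highest ratios of last to first state and Barhl1 had its own highest level in the first state in both libraries. Each is the 250 bases before the start annotated in RefSeq (GRCm38.p6), on the coding strand. These starts can differ from the gene limits given above, and the Nhlh2 and Neurod2 windows reach into the genes as placed there. Capitals mark every CANNTG, the E-box letters that bHLH dimers can bind, which read as CANNTG on both strands. The windows are chr1:172057597-172057846 (minus strand) for Nhlh1, chr3:102009895-102010144 (plus strand) for Nhlh2, chr11:98329646-98329895 (minus strand) for Neurod2 and chr2:28916669-28916918 (minus strand) for Barhl1.
Nhlh1: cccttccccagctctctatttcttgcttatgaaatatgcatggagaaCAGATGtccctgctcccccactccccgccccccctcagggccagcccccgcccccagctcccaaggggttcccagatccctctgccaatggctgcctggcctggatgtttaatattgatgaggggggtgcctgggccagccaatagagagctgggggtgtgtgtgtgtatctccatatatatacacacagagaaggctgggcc
Nhlh2: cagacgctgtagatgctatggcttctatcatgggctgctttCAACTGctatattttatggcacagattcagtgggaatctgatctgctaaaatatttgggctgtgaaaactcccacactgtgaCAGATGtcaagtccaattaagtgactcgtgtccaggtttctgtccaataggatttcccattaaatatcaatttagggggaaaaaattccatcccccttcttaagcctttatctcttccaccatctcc
Neurod2: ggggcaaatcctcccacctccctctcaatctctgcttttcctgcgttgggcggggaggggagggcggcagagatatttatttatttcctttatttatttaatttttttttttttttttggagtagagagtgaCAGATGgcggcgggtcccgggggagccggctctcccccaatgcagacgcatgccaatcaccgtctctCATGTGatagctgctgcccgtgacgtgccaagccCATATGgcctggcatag
Barhl1: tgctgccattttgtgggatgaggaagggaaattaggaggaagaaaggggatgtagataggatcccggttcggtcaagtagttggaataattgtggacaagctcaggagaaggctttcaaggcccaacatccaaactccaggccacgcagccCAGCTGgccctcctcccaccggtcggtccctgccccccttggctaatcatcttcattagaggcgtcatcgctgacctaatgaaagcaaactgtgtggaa

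RefSeq windows were available for 9 of the 10 factors, 11 windows in all since Barhl1 and Pax6 have 2 each. CANNTG was in 9 of the 11 windows, beside 66.2% of all 32851 windows of this length. The more specific CAGATG, whose other strand reads CATCTG, was in 3 of the 11, the windows of Nhlh1, Nhlh2 and Neurod2, beside 14.4% of all windows. It begins 203 bases before the start in Nhlh1, 127 in Nhlh2 and 118 in Neurod2. CAGCTG was in both Barhl1 windows and in no other window of the 9 factors, beside 13% of all windows. These are matches of letters, chosen for display after the levels were known, and no binding was measured.

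The levels by cluster place the factors along the lineage. Atoh1 in the mutant library was highest in cluster 8, the cycling cluster with Eomes, at 146 CPM (137 to 155), then in cluster 5 at 118 CPM, in the 41 cells of cluster 21 (hindbrain neuron-like) at 111 CPM and in cluster 0 at 93.1 CPM. The intervals of these last 3 overlapped, and that of cluster 8 lay above those of clusters 5 and 0. In the control library cluster 8 was also first, at 112 CPM, followed by cluster 2 at 101 CPM, cluster 21 at 92.9 CPM, cluster 0 at 79.7 CPM and cluster 5 at 72.0 CPM. Each of these neighbours in the control order overlapped with the next. Atoh1 was low in the most differentiated clusters of both libraries, with 7.79 CPM in mutant against 5.12 CPM in control cells of cluster 9.

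Neurod1 had the opposite course. It was highest in cluster 4, at 1145 CPM in mutant against 1277 CPM in control cells, and in cluster 9, at 1111 and 1236 CPM, and these 2 clusters overlapped in each library. Neurod2 followed it in mutant cells, with 169 CPM in cluster 4 and 162 CPM in cluster 9. In control cells Neurod2 was highest in cluster 23, GABAergic interneuron-like with Pax2, at 241 CPM, ahead of 159 CPM in cluster 4 and 117 CPM in cluster 9. Nhlh2 was likewise highest in control cluster 23, at 383 CPM. That cluster held 17 mutant cells and 521 control cells. Nhlh1 was highest in the mutant-dominated cluster 33 of the mutant library, at 212 CPM, and in cluster 21 of the control library, at 134 CPM. The 3 factors were thus not limited to the granule lineage-like clusters.

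Barhl2 was higher in the unipolar brush cell-like cluster and in the unnamed clusters with Eomes than in the granule lineage-like clusters. It stood between 51.5 and 61.5 CPM in the 4 clusters 1, 2, 4 and 8 of the mutant library and between 52.7 and 56.3 CPM in those of the control library. In the 5 granule lineage-like clusters it was 8.40 CPM in mutant against 11.5 CPM in control cells. Barhl1 was more even, at 110 CPM in mutant against 134 CPM in control granule lineage-like cells, with its highest mutant level in cluster 2 (274 CPM) and its highest control level in cluster 21 (424 CPM). Pax6 was highest in cluster 2 of both libraries, at 441 CPM in mutant against 481 CPM in control cells.

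Zic1 and Zic2 were also high in clusters of the mutant library that are not granule lineage-like. In the mutant library Zic1 reached 758 CPM in the mutant-dominated cluster 13 and 552 CPM in cluster 10, and Zic2 reached 287 and 276 CPM there. Fibroblast or meninges-like cells had Zic1 at 249 CPM in mutant against 289 CPM in control cells.

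**Figure D1:**
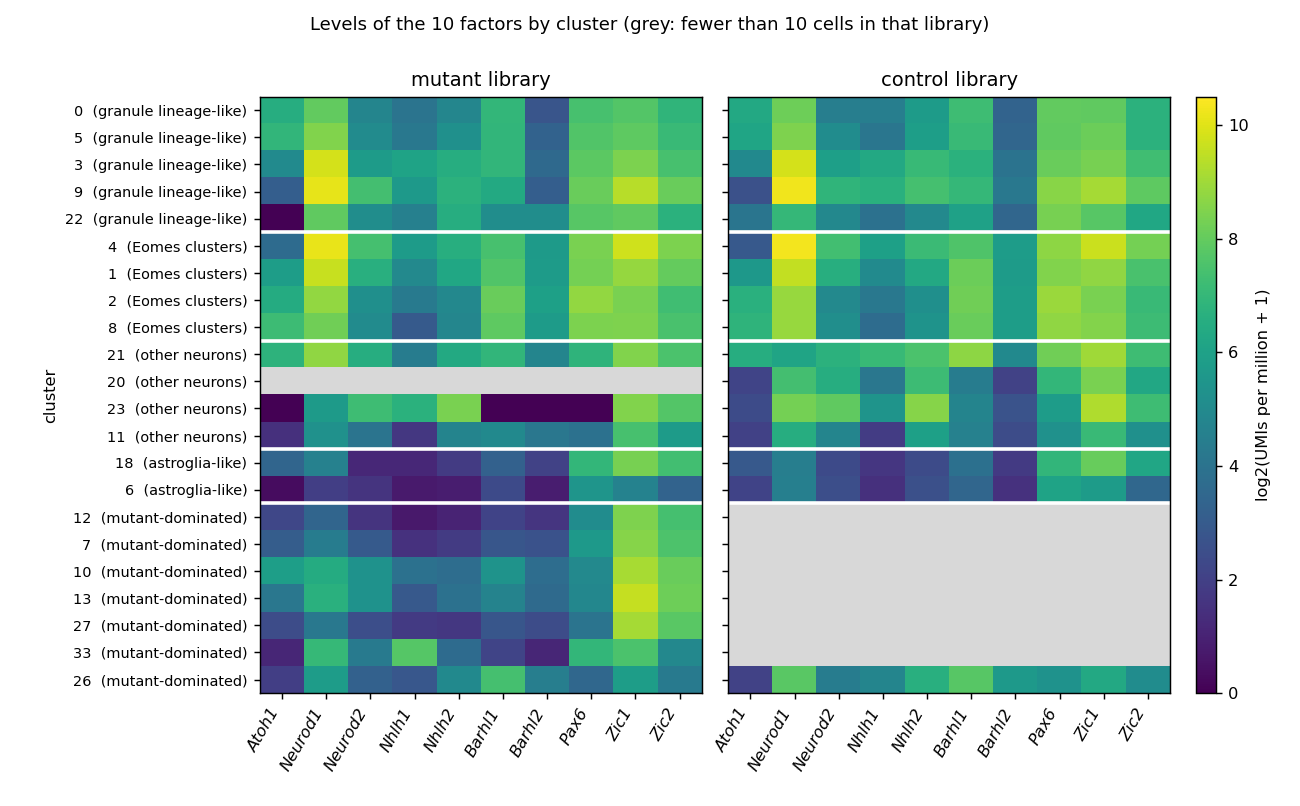
Levels of the 10 factors as log2(CPM + 1), by cluster (rows) and factor (columns), mutant library left and control library right; rows are grouped as granule lineage-like, clusters with Eomes, other neurons, astroglia-like and mutant-dominated, and grey rows had under 10 cells. Atoh1 is bright in clusters 0, 5, 2 and 8 and dark in cluster 9, while Neurod1 is brightest in clusters 4 and 9 of both libraries, and Zic1 and Zic2 stay bright in the mutant-dominated clusters 10, 13 and 27.

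Across 28 control clusters of at least 50 cells, some factors had nearly the same pattern. The Pearson correlation of log2(CPM + 1) was 0.958 between Neurod2 and Nhlh2, 0.935 between Barhl1 and Barhl2, and 0.913 between Zic1 and Zic2. These are descriptions across clusters of 1 library, which share their cells' depth and free RNA. Among all 7819 genes ranked, the closest to Zic2 was Zic5 (0.976) and the closest to Zic1 was Zic4 (0.942). The closest to Nhlh1 was the axonal adhesion gene Cntn2 (0.9), the closest to Neurod1 was Shf (0.928), and Hsd11b2 was closest to both Atoh1 (0.876) and Pax6 (0.869). The lowest correlation between any 2 of the 10 was 0.411, between Atoh1 and Nhlh2.

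Summed over all kept cells, 8 of the 10 factors were lower in mutant cells by 1.5-fold or more, and none was higher. Past the same fold, 5.88% of the 9789 genes at 10 CPM or more were lower and 8.17% were higher. Neurod1 had the most UMIs of any of the 10 in the control library, and was 125 CPM in mutant against 408 CPM in control cells, a ratio of 0.306 (0.301 to 0.311). Pax6 was 69.6 against 238 CPM, a ratio of 0.292. Nhlh2 had the lowest ratio of the 10, with 16.2 CPM in mutant against 69.1 CPM in control cells, 0.235 (0.225 to 0.245). The ratio was 0.387 for Nhlh1, 0.415 for Barhl1, 0.463 for Neurod2, 0.588 for Barhl2 and 0.602 for Atoh1. Zic1, at 352 CPM in mutant against 314 CPM in control cells, and Zic2, at 155 and 118 CPM, were within 1.5-fold, with ratios of 1.12 and 1.31.

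A sum over a whole library cannot tell fewer cells of a type from less RNA of the gene per cell, so the levels were taken again in subsets. Without the mutant-dominated clusters, 6 of the 10 were 1.5-fold lower and 0 higher, against 3.01% and 7.28% of 9783 genes. Atoh1 was then 31.4 CPM in mutant against 41.8 CPM in control cells, a ratio of 0.750, and Barhl2 had a ratio of 0.760. Zic1 and Zic2 had ratios of 0.706 and 0.834 there, against 1.12 and 1.31 over all cells, so their direction depended on the mutant-dominated clusters. Those clusters held 71.8% of all Zic1 UMIs and 71.6% of all Zic2 UMIs of the mutant library, and 0.343% and 0.372% of those of the control library.

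Within the granule lineage-like clusters the differences were much smaller, and none of the 10 factors passed 1.5-fold, against 2.51% of 9046 genes lower and 2.01% higher. Neurod1 was 564 CPM in 671 mutant cells and 528 CPM in 4887 control cells, a ratio of 1.07 (1.04 to 1.10), set beside 0.306 in the whole libraries. Atoh1 was 75.9 against 56.4 CPM (ratio 1.35, 1.24 to 1.46) and Neurod2 62.7 against 45.9 CPM (1.37, 1.24 to 1.5). Lower in mutant cells were Nhlh2, at 57.9 against 81.8 CPM (0.707, 0.644 to 0.776), Pax6, at 213 against 279 CPM (0.763, 0.727 to 0.801), Nhlh1 (0.774) and Barhl1 (0.824). Zic2 was 167 against 132 CPM (1.26, 1.19 to 1.34). The 5 clusters contributed unequally to the sums of the 2 libraries, which the values by cluster below take apart. The 10 precursor markers summed to 601 CPM in mutant against 941 CPM in control cells of these clusters, and the 12 differentiating granule neuron markers to 3432 CPM in mutant against 3546 CPM in control cells. Erythroid markers, which granule cells do not make, summed to 28607 CPM in mutant against 19947 CPM in control cells, and their part in the differences was not tested.

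**Figure D2:**
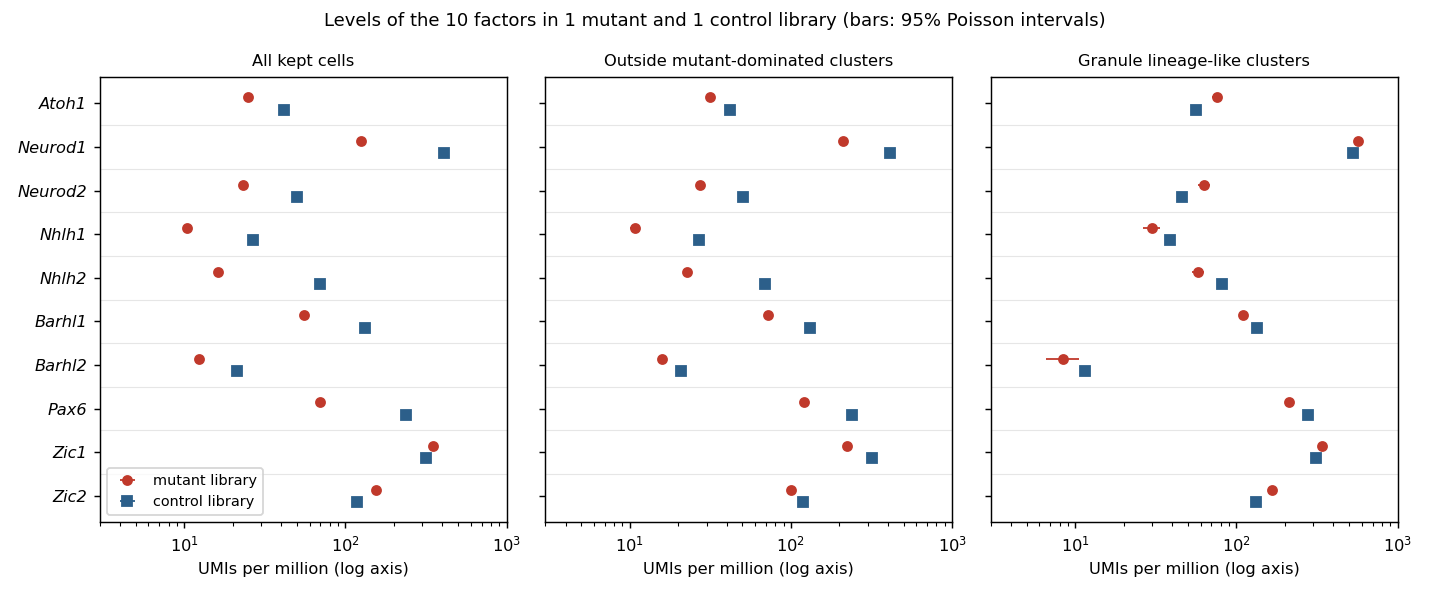
CPM of each factor on a log axis in all kept cells, outside the mutant-dominated clusters and in the granule lineage-like clusters; circles are the mutant library, squares the control library, and bars 95% Poisson intervals. In all kept cells 8 circles lie well left of their squares, whereas in the granule lineage-like clusters every pair lies within 1.5-fold.

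The share of cells with a UMI shows the same contrast. With every cell thinned to 3000 UMIs, 573 of 13578 mutant cells (4.22%, 3.89 to 4.57) and 1141 of 13411 control cells (8.51%, 8.04 to 8.99) had an Atoh1 UMI, with 2006 mutant and 2382 control cells left out as shallower. Unthinned, the shares were 8.43% and 19.3%. Inside the granule lineage-like clusters the shares were close, with 88 of 582 mutant cells (15.1%, 12.3 to 18.3) and 556 of 4281 control cells (13%, 12 to 14). For Neurod1 they were 54.1% of mutant and 53.7% of control cells of these clusters, and for Pax6 44.2% and 55.9%. Erythroid-like cells, which do not make these factors, had an Atoh1 UMI in 0.906% of mutant and 0.433% of control cells, and a Neurod1 UMI in 1.21% and 3.9%. Their median depth was 17503 UMIs in the mutant and 18848 UMIs in the control library. In fibroblast or meninges-like cells, which should lack them as well, the mutant level was 8.03 CPM for Neurod1 and 4.27 CPM for Pax6, against control levels of 23.4 and 25.6 CPM. Levels near these are read as background.

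In the granule cell precursor-like cluster 0, with 178 mutant and 1809 control cells, 1 of 9 factors at 10 CPM or more was lower, Nhlh2, and 0 were higher, against 4.49% and 2.42% of 9056 genes. Nhlh2 was 27.5 CPM in mutant against 53.9 CPM in control cells, a ratio of 0.510 (0.383 to 0.666), from 57 and 1046 UMIs. Pax6, at 171 against 254 CPM, had a ratio of 0.672 (0.601 to 0.748), just inside 1.5-fold. Atoh1 itself was 93.1 against 79.7 CPM, a ratio of 1.17 (1 to 1.36), and Neurod1 was 253 against 291 CPM. Barhl2 stayed under 10 CPM, with 12 UMIs in mutant and 177 UMIs in control cells.

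The cycling cluster 5 held 198 mutant and 1199 control cells. There Atoh1 was 118 CPM in mutant against 72.0 CPM in control cells, a ratio of 1.63 (1.46 to 1.82), past 1.5-fold as were 3.61% of 8674 genes. Nhlh2 was again lower, at 37.9 against 58.6 CPM (0.647, 0.536 to 0.775), where 1.96% of genes were lower. Neurod1 (1.02), Neurod2 (0.976) and Nhlh1 (1.04) had ratios near 1 with intervals that include it.

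Clusters 3, 9 and 22 together, the differentiating granule neuron-like cells, held 295 mutant and 1879 control cells. Of the 10 factors 1 was lower, Barhl2, at 9.63 against 15.5 CPM, and 0 were higher, while 9.17% of 9036 genes were lower and 2.84% higher. Neurod1 was 1015 CPM in mutant against 958 CPM in control cells, and Neurod2 was 122 against 84.0 CPM, a ratio of 1.45 (1.29 to 1.63). Cluster 22, with low Neurod1 and led by Btbd11 and Caln1, held 10 mutant and 285 control cells. Without it Neurod1 was 1038 against 1099 CPM, and Nhlh1 joined Barhl2 as lower, at 55.4 against 91.2 CPM (0.607, 0.513 to 0.714), where 2.71% of 8681 genes were lower and 4.17% higher. This subset was chosen after the values were seen.

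The 2 other clusters of this class differed from each other. In cluster 3, with 93 mutant and 627 control cells and Atoh1 still at 32.0 and 30.6 CPM, none of the 10 passed 1.5-fold, where 5.51% of 8062 genes were lower and 5.58% higher. Neurod1 was 899 against 905 CPM there, and Neurod2 53.9 against 59.4 CPM (0.908, 0.670 to 1.21). In the more differentiated cluster 9, with 192 mutant and 967 control cells, 4 of 9 factors were lower and 0 higher, against 5.24% and 4.69% of 8932 genes. Nhlh1 was 48.8 CPM in mutant against 99.4 CPM in control cells (0.491, 0.393 to 0.608). Barhl2 had a ratio of 0.444 (0.243 to 0.753), Nhlh2 0.643 and Barhl1 0.648. Neurod2 was 162 against 117 CPM (1.38, 1.21 to 1.56), so its higher level in the pooled class was seen in cluster 9 and not in cluster 3. Unipolar brush cell markers summed to 460 CPM in mutant against 263 CPM in control cells of cluster 9, and their part in these ratios was not tested.

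**Figure D3:**
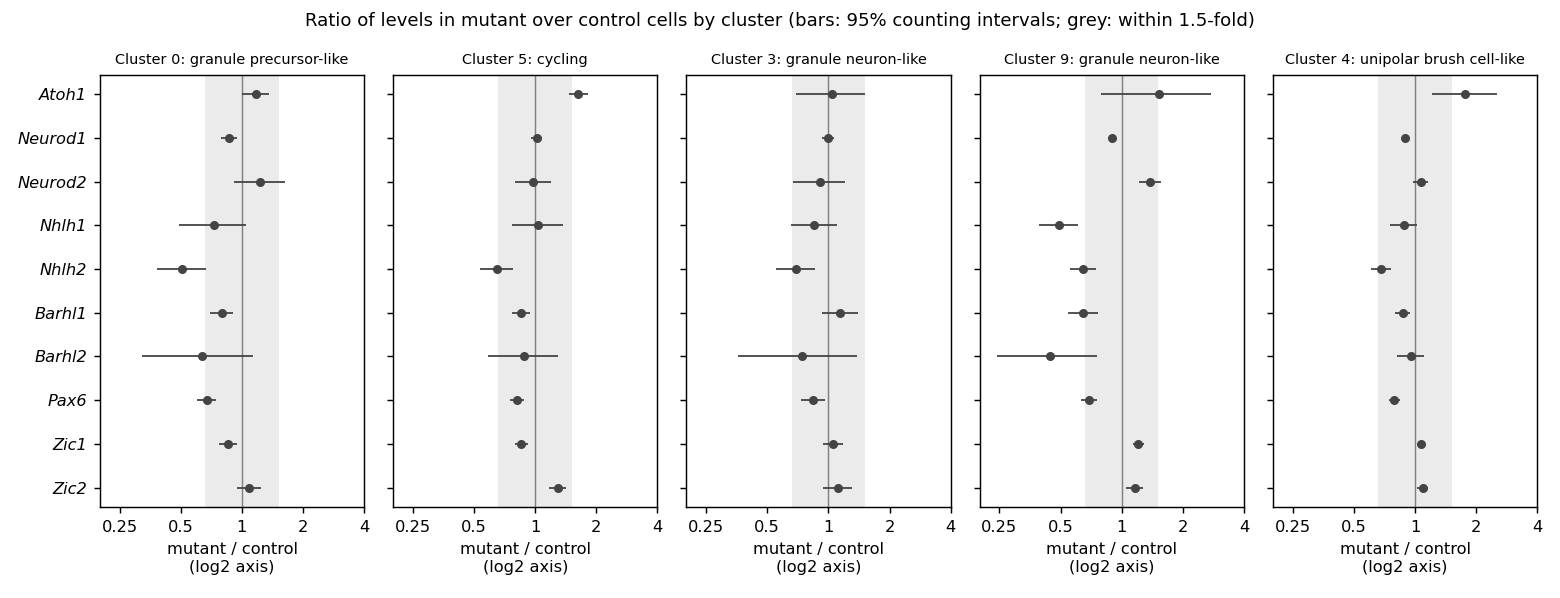
Ratio of the level in mutant over control cells, on a log2 axis, for each factor in clusters 0, 5, 3, 9 and 4; bars are 95% counting intervals and the grey band spans 1.5-fold either way. Nhlh2 lies left of 1 in all 5 panels, between 0.510 and 0.689, while Neurod1 lies between 0.868 and 1.02.

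Nhlh2 and Pax6 had intervals below 1 in each of clusters 0, 5, 3, 9 and 4, but not in all clusters. In cluster 22 Nhlh2 was higher, at 92.4 against 29.6 CPM (3.12, 1.3 to 6.45), from 8 UMIs in 10 mutant cells, and Pax6 had a ratio of 0.677 (0.406 to 1.06). In cluster 1 the Nhlh2 ratio was 0.929 (0.768 to 1.12). Pax6 was also lower in mutant than in control fibroblast or meninges-like cells, as given above. After thinning, a Pax6 UMI was in 1.01% of mutant and 7.14% of control microglia or macrophage-like cells. In erythroid-like cells the shares were 1.81% and 1.3%. The part of free RNA in the Nhlh2 and Pax6 ratios by cluster was not tested. In the unipolar brush cell-like cluster 4, with 451 mutant and 1489 control cells, Nhlh2 was 95.3 against 140 CPM, a ratio of 0.681 (0.608 to 0.760), and Pax6 336 against 425 CPM (0.792, 0.746 to 0.840). No factor was 1.5-fold lower there, as were 1.42% of 8899 genes, and Atoh1 was higher at a low level, 11.6 against 6.60 CPM, where 2.9% of genes were higher. None of the 10 passed 1.5-fold in cluster 1, where 1.53% of genes were lower and 7.52% higher, or in cluster 2, where 0.873% were lower and 1.45% higher. In the cycling cluster 8, with 368 mutant and 889 control cells, Neurod1 was 300 against 473 CPM (0.634, 0.603 to 0.666) and Nhlh1 was also lower (0.570), where 0.964% of 8510 genes were lower and 2.66% higher. Atoh1 in cluster 8 was 146 CPM in mutant against 112 CPM in control cells, a ratio of 1.30 (1.2 to 1.41).

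The order of the factors from Atoh1-positive to Neurod1-high cells was read in the granule lineage-like clusters. States were set by the UMIs left after thinning each cell to 3000 UMIs. Levels in a state were summed from all UMIs of its cells, unthinned. Cells with Atoh1 and no Neurod1 UMI numbered 65 in the mutant and 410 in the control library, cells with both 23 and 146, cells with 1 or 2 Neurod1 UMIs and no Atoh1 129 and 1029, and cells with 3 or more Neurod1 UMIs and no Atoh1 163 and 1123. These last Neurod1-high cells were 28.0% of the thinned mutant cells and 26.2% of the control cells of these clusters. Another 202 mutant and 1573 control cells had neither UMI. Atoh1 and Neurod1 define the states, so only the 8 other factors are described along them.

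In mutant cells, Nhlh2 had the steepest course, with 4.54 CPM in the Atoh1-only state, 39.2, 87.1 and then 126 CPM in the Neurod1-high state. The last state was 27.7 times the first (11.7 to 86.1), from 5 UMIs in the first. Nhlh1 followed with 9.08, 17.2, 28.3 and 78.9 CPM, 8.69 times (4.6 to 18.5), and Neurod2 with 24.5, 66.2, 67.9 and 117 CPM, 4.76 times (3.19 to 7.38). Zic1 was 2.91 times, Pax6 2.08 times and Zic2 1.70 times as high in the last state as in the first. Barhl1 ran the other way, with 196, 115, 93.0 and 65.4 CPM, 0.333 times (0.266 to 0.416).

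In control cells Nhlh1 was steepest, with 6.95, 22.2, 43.6 and 91.1 CPM, 13.1 times (9.64 to 18.3). Neurod2 had 11.9, 33.3, 53.1 and 89.6 CPM, 7.52 times (5.93 to 9.67), and Nhlh2 had 29.8, 56.5, 93.1 and 161 CPM, 5.41 times (4.64 to 6.33). Zic2 (2.28 times), Barhl2 (2.17), Zic1 (2.07) and Pax6 (1.53) had shallower courses, and Barhl1 had 196, 154, 120 and 106 CPM, 0.538 times (0.498 to 0.581). In both libraries the 3 bHLH factors had the highest ratios of last to first state, and Barhl1 had its own highest level in the first. Barhl2 was the exception in the mutant library, at 0.846 times with an interval that spans 1 (0.400 to 1.85).

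**Figure D4:**
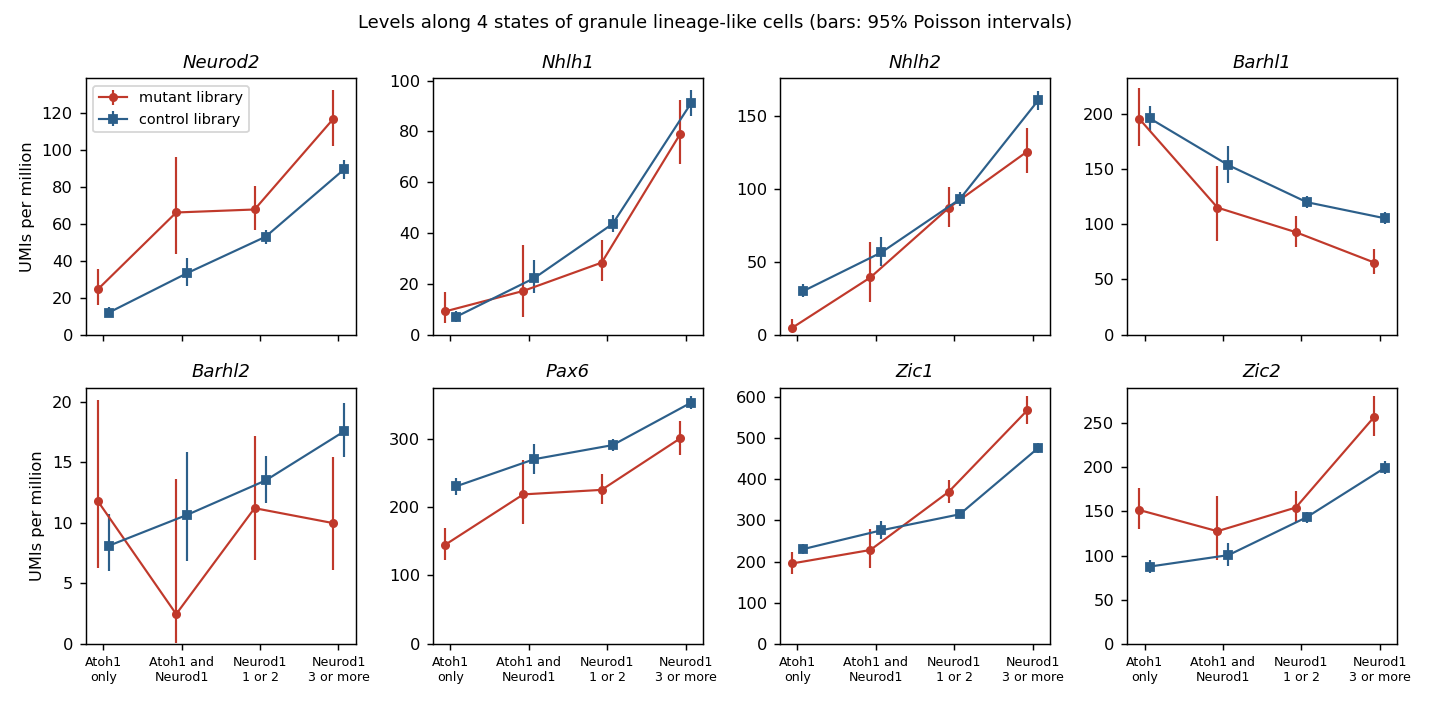
CPM of 8 factors in 4 states of granule lineage-like cells, ordered along the x axis by Atoh1 and Neurod1 UMIs; red circles are the mutant library, blue squares the control library, and bars 95% Poisson intervals. From first to last state both lines run in the same direction for every factor but Barhl2. The mutant line starts lower for Nhlh2 and Pax6 and higher for Zic2 and Neurod2, and ends lower for Barhl1.

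For Nhlh2, Pax6, Zic2 and Neurod2 the ratio of mutant to control was further from 1 in the first state than in the last. In Atoh1-only cells Nhlh2 was 4.54 CPM in mutant against 29.8 CPM in control cells, a ratio of 0.152 (0.0489 to 0.362), and Pax6 was 144 against 230 CPM (0.628, 0.529 to 0.74). After thinning, a Nhlh2 UMI was in 3.08% of these mutant and 6.83% of these control cells. Endothelial-like cells, which should lack it, had one in 0% of mutant and 3.18% of control cells. In microglia or macrophage-like cells the shares were 0% and 3.17%, and in erythroid-like cells 0.302% and 1.3%. The part of free RNA in the Nhlh2 ratio was not tested. Zic2 was 152 against 87.5 CPM (1.73, 1.45 to 2.07), Neurod2 was 24.5 against 11.9 CPM (2.06, 1.27 to 3.24), and Barhl1 was the same at 196 CPM in each (ratio 1, 0.861 to 1.16). In the Neurod1-high state the ratios were closer to 1 for Nhlh2 (0.782, 0.683 to 0.891), Pax6 (0.852, 0.781 to 0.927) and Zic2 (1.29, 1.17 to 1.42), and lower for Barhl1 (0.620, 0.514 to 0.741). Cells of clusters 0 and 5 made up most of the Atoh1-only state in each library, with 47.7% and 46.2% of the mutant and 56.1% and 36.1% of the control cells. A UMI of Mki67 or Top2a, which mark cycling, was in 46.2% of the mutant and 37.6% of the control cells of that state.

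A second ordering used no member of the 10. Cells were put in 5 bins by a score of differentiating granule neuron markers minus precursor markers, with the bins set on control cells. The precursor markers were themselves lower in mutant cells of the granule lineage-like clusters, at 601 against 941 CPM summed. A bin may therefore not hold the same stages in each library, and the part of this in the levels was not tested. Atoh1 had 119, 106, 94.4, 52.4 and 11.5 CPM along the bins in mutant cells and 96.9, 71.5, 57.3, 31.8 and 15.3 CPM in control cells. Neurod1 had 211, 339, 395, 713 and 1220 CPM in mutant cells and 275, 369, 486, 640 and 1047 CPM in control cells. Through the middle bins Atoh1 stayed higher in mutant cells, at 94.4 against 57.3 CPM in the third. Pax6 was lower in mutant cells in all 5 bins, at 198 against 236 CPM in the first and 317 against 348 CPM in the last. Zic2 was higher in all 5, at 117 against 92.7 CPM in the first and 250 against 204 CPM in the last. Nhlh2 was 28.9 against 51.9 CPM in the first bin and 130 against 144 CPM in the last. Neurod2 was 34.8 against 28.0 CPM in the first and 131 against 77.2 CPM in the last. Its difference was thus wider in the last bin than in the first, unlike along the states.

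Where the Atoh1-positive cells sat differed between the libraries. Of the 573 mutant cells with an Atoh1 UMI after thinning, 253 (44.2%) were in mutant-dominated clusters, 180 of them in cluster 10, and 88 (15.4%) were granule lineage-like. Of the 1141 control cells, 556 (48.7%) were granule lineage-like, and cluster 8 held another 218 (19.1%) and cluster 2 another 185 (16.2%). Cluster 10, with 2229 mutant and 5 control cells, was led by Neurog2 and Olig3, bHLH factors of dorsal progenitors, and Atoh1 was 58.9 CPM (55.8 to 62.2) over all its mutant cells. In the mutant-dominated cluster 27 it was 4.49 CPM, and in fibroblast or meninges-like mutant cells 1.51 CPM.

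In these 253 cells Pax6, Neurod1, Nhlh2 and Barhl1 were low for Atoh1-positive cells. Their Pax6 was 49.7 CPM, against 326 CPM in all control Atoh1-positive cells, a ratio of 0.152 (0.130 to 0.177). Neurod1 was 53.2 against 202 CPM (0.264, 0.227 to 0.305), Nhlh2 15.2 against 38.2 CPM (0.398, 0.296 to 0.524) and Barhl1 114 against 262 CPM (0.437, 0.394 to 0.483). Zic2, at 246 against 111 CPM (2.22, 2.05 to 2.40), Neurod2, at 40.6 against 22 CPM (1.84, 1.51 to 2.23), and Zic1, at 402 against 289 CPM (1.39, 1.31 to 1.48), were higher. Barhl2 (1.12, 0.9 to 1.37) and Nhlh1 (0.873, 0.623 to 1.2) had intervals that include 1. Atoh1 itself chose the cells and is left out of this reading. In the 180 of them in cluster 10, Pax6 was 54.4 CPM, against 29.5 CPM over all mutant cells of that cluster. Barhl1 (139 against 41.2 CPM) and Barhl2 (33.8 against 12.5 CPM) were also higher. Neurod1 (54.4 against 88.3 CPM) and Zic1 (347 against 552 CPM) were lower. For Neurod2, Zic2, Nhlh1 and Nhlh2 the intervals overlapped. The part of the cluster in the ratios to control was not tested.

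In the other 320 mutant Atoh1-positive cells Pax6, Neurod1, Barhl1 and Zic1 were closer to the control level, and Nhlh1 was further from it. Pax6 was 279 CPM in them (ratio 0.854, 0.805 to 0.905), Neurod1 217 CPM (1.07, 1 to 1.15) and Zic1 298 CPM (1.03, 0.976 to 1.09). Nhlh2, at 19.4 CPM (0.509, 0.408 to 0.628), and Nhlh1, at 8.26 CPM (0.568, 0.401 to 0.788), were lower, and Zic2, at 162 CPM (1.46, 1.35 to 1.59), and Neurod2, at 32.5 CPM (1.47, 1.22 to 1.77), were higher, though by less than 1.5-fold. Barhl2 had a ratio of 1.19 (0.991 to 1.42). Against the control Atoh1-positive cells outside these clusters, Nhlh1 and Nhlh2 were past 1.5-fold, where 2.77% of 8950 genes were lower and 3.34% higher. The 10 Wnt target genes examined, among them Axin2, Lef1 and Notum, summed to 2143 CPM in the 253 cells, 659 CPM in the other 320 and 445 CPM in the 1141 control cells, and their part in the levels of the factors was not tested.

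**Figure D5:**
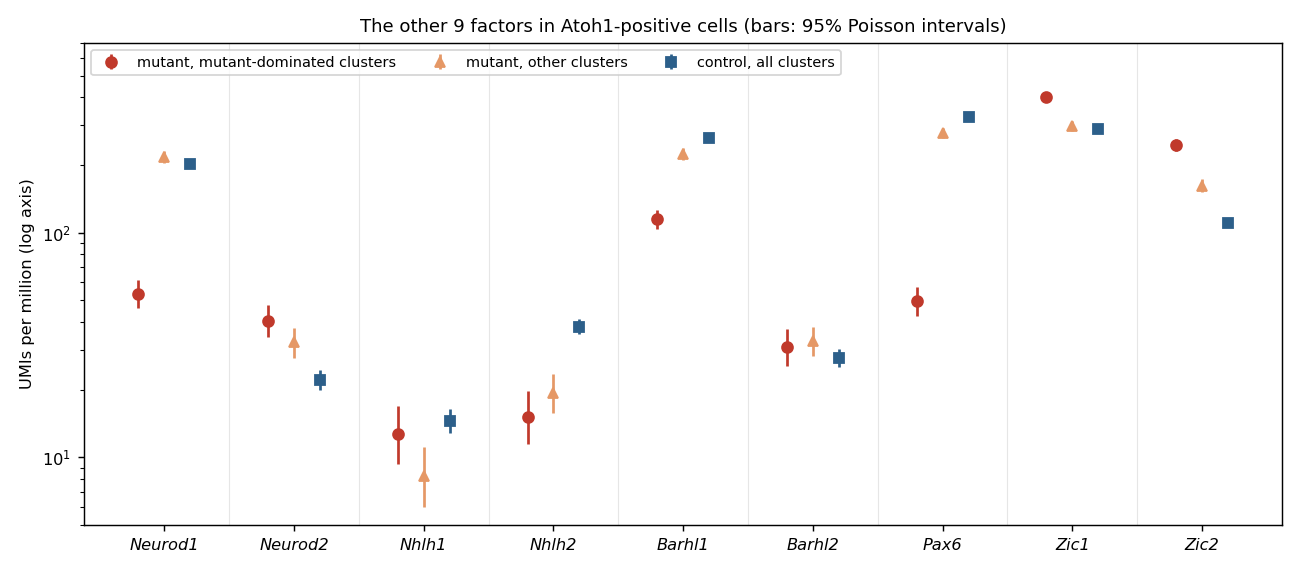
CPM, on a log axis, of the 9 other factors in cells with an Atoh1 UMI; red circles are 253 mutant cells of mutant-dominated clusters, orange triangles 320 other mutant cells, blue squares 1141 control cells, and bars 95% Poisson intervals. For Pax6, Neurod1 and Barhl1 the triangles lie near the squares and the circles far below, and for Zic2 both mutant groups lie above the squares.

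Atoh1 is again left out of the reading in all Atoh1-positive cells of each library, since it chose them. Of the other factors 2 were 1.5-fold lower in the mutant, Nhlh2 and Pax6, and 2 were higher, Neurod2 and Zic2. Past the same fold, 4.12% of 9188 genes were lower and 9.82% higher. In the 88 mutant and 556 control Atoh1-positive cells of granule lineage-like clusters, Nhlh2 was also lower, at 13.9 against 37.0 CPM (0.376, 0.229 to 0.585), where 5.74% of 8989 genes were lower. Pax6 was 164 against 241 CPM there (0.683, 0.596 to 0.779). Neurod2 and Zic2 were higher, with ratios of 2.02 (1.45 to 2.78) and 1.59 (1.37 to 1.86), where 6.36% were higher. After thinning, 34.1% of the mutant and 52.3% of the control cells of this subset had a Pax6 UMI, and 26.1% and 26.3% had a Neurod1 UMI. A Neurod2 UMI was in 5.68% (1.87 to 12.8) of the mutant and 5.22% (3.52 to 7.41) of the control cells, so the shares overlapped where the summed levels did not. A Zic2 UMI was in 34.1% (24.3 to 45) and 23.7% (20.3 to 27.5), which overlapped as well.

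Neurod1-high cells were also spread differently. Of 757 mutant cells with 3 or more Neurod1 UMIs after thinning, 22.3% were granule lineage-like and 31.8% were in the unipolar brush cell-like cluster 4. Of 2798 such control cells, 41.2% were granule lineage-like and 29.6% were in cluster 4. A further 15.9% of the mutant Neurod1-high cells were in mutant-dominated clusters.

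Other genes of the granule lineage, taken from a list of 32, were also mostly lower in the whole mutant library. The list held the 10 precursor markers and the 12 differentiating granule neuron markers that were used to name clusters. Its counts within the named clusters are therefore not independent of the naming. Of 30 at 10 CPM or more, 17 were 1.5-fold lower in the mutant library and 0 were higher, with a median log2 ratio of -0.64 beside 0.03 for all genes. The precursor genes Pvalb, at 3.65 against 39.0 CPM, and Mfap4, at 25.4 against 174 CPM, and the homeobox factor Tlx3, at 11.2 against 70.3 CPM, had the lowest ratios. Within the precursor-like cluster 0, 3 of 29 were lower and 1 was higher, with a median of -0.15, beside 4.49% lower and 2.42% higher over all genes. Mfap4 was 239 against 492 CPM there, Pvalb 56.0 against 173 CPM and Cntn2 5.31 against 19.1 CPM, while the D-type cyclin gene Ccnd2 was 605 against 340 CPM (1.78, 1.67 to 1.89). In the differentiating granule neuron-like cells 8 of 28 were lower and 0 higher, beside 9.17% and 2.84% of all genes, with Sfrp1 (0.383), the hedgehog effector Gli2 (0.418) and Mfap4 (0.502) lowest. Without cluster 22, 4 were lower and 1 was higher, Cadps2 at 828 against 530 CPM, beside 2.71% and 4.17% of all genes. Gli2 was then 14.0 against 20.1 CPM, a ratio of 0.698 (0.491 to 0.967), and no longer past 1.5-fold.

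Related factors outside the 10 went in both directions. Of 12 measured at 10 CPM or more, 4 were lower and 5 higher in the mutant library, beside 5.88% and 8.17% of all genes. The interneuron factor Pax2 (0.696 against 19.2 CPM), Neurod6 (19.3 against 48.3 CPM) and Eomes (24.0 against 56.5 CPM) had the lowest ratios with 1 CPM added. Neurog2 (77.3 against 7.66 CPM, ratio 10.1), Olig3 (14.9 against 2.19 CPM, 6.80) and the LIM homeobox factor Lhx9 (75.2 against 17.6 CPM, 4.28) were highest. In cluster 5, Neurog2 was 18.7 CPM in mutant against 1.31 CPM in control cells, a ratio of 14.3 (8.99 to 23.3). Fibroblast or meninges-like cells, which should lack it, had 6.78 CPM (4.47 to 9.86) in mutant against 0.79 CPM (0.163 to 2.31) in control cells. Neurog2 was near that background in cluster 0, at 5.79 against 0.619 CPM, and in the differentiating granule neuron-like cells, at 5.97 against 0.785 CPM.

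The factors are also made outside the granule lineage, and were compared there as well. In 41 mutant and 313 control hindbrain neuron-like cells, Nhlh1 was 19.9 against 134 CPM (0.149, 0.0675 to 0.285), Barhl1 120 against 424 CPM (0.282, 0.211 to 0.37) and Pax6 113 against 296 CPM (0.382, 0.282 to 0.506). With Nhlh2, 4 of the 10 were lower there and 1 was higher, Neurod1, at 432 against 69.0 CPM, where 12.1% of 9386 genes were lower and 20.8% higher. Atoh1, which marks the lower rhombic lip as well, was 111 against 92.9 CPM in these cells. Eomes was 75.4 CPM in the mutant cells, against 5.36 CPM in the control cells of this class, and its part in the ratios was not tested.

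In the midbrain or isthmic neuron-like cluster 11, with 611 mutant and 244 control cells, 4 of 8 factors were lower, Neurod1, Neurod2, Nhlh2 and Pax6, and 1 was higher, Barhl2, where 5.16% of 9621 genes were lower and 4.6% higher. Neurod1 was 38.5 against 91.9 CPM and Barhl2 was 17.1 against 4.37 CPM. Neurod1 and Pax6 were also lower in mutant than in control fibroblast or meninges-like cells, which should lack them. The part of free RNA in the ratios of cluster 11 was not tested. In the astroglia-like clusters 6 and 18, 2 of 5 factors were lower, Neurod1 and Barhl1, both close to background, and 1 was higher, Zic2, where 2.52% of 9687 genes were lower and 2.43% higher. Zic2 was 53.9 against 35.6 CPM in 851 mutant and 2060 control cells, a ratio of 1.52 (1.36 to 1.69). The ratio was 2.19 (1.94 to 2.46) in cluster 18, at 159 against 72.5 CPM, and 0.897 (0.663 to 1.2) in cluster 6, at 9.28 against 10.4 CPM.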

How the data were processed

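The authors deposited raw UMI counts for each gene and barcode, produced by Cell Ranger 7.0.1 with mm10, per the submitters' processing notes. The sources used here do not state intron counting, cell calling or annotation release. Per the labels' protocols, papain-digested cells were sorted with 7-AAD to remove dead ones, and 3 samples per genotype were pooled before a 10x Genomics 3' library.

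The mutant library held 21596 barcodes with 220565819 UMIs and the control library 21457 with 225512196. Cells with at least 1000 UMIs, 500 genes and at most 10% mitochondrial UMIs were kept; Scrublet (scanpy 1.11.5) removed 898 mutant (5.45%) and 1019 control (6.06%) doublets. Counts were scaled to 10000 UMIs per cell and log-transformed, and 2000 variable genes without the 10 factors gave 30 principal components, 15 neighbours and Leiden clusters at resolution 1. A cluster took the name of 1 of 20 cell types by its markers: at least 3 and at least 40% of a type's markers, each at a log2 ratio of 0.5 and in 10% of cells, with a mean log2 ratio of at least 0.25. These thresholds were set after the clusters were seen, and 22 clusters were named, so cell classes may differ from the study's own. Levels are UMIs summed over cells as CPM. Genes entered at 10 CPM in either library, and lower or higher means 1.5-fold with 1 CPM added to both sides. Intervals are exact Poisson for sums, exact binomial (Clopper-Pearson) for shares and conditional binomial for ratios. They treat UMIs as independent molecules. With 1 library per genotype no test was run. The 10 factors always, the 3 list members furthest each way past 1.5-fold, and the genes most like each factor were named, of which some are printed. The members and lists were chosen with earlier results of these data known. The sums, ratios and intervals were tested on simulated counts. Of the identifiers, 32158 were found in GENCODE M21.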

Additional observations from a re-analysis of the deposited data

Results flagged for a closer look

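Neurod1 and Barhl2 were past 1.5-fold in opposite directions in cell sets that share no cell; the differences between the sets were not tested. Neurod1 had a mutant to control ratio of 6.26 in hindbrain neuron-like cells (432 against 69.0 CPM, from 41 mutant and 313 control cells), but 0.634 in cluster 8 and 0.419 in the midbrain or isthmic neuron-like cluster 11. Barhl2 had a ratio of 3.92 in cluster 11 (17.1 against 4.37 CPM, from 90 and 10 UMIs) and 0.444 in cluster 9.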

How the results depend on the processing

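No paired analysis was possible because each genotype has 1 library, and no replicate could be left out for the same reason. The count of 8 factors lower in the whole mutant library was 7 with 5 CPM added and 6 without the mutant-dominated clusters. In precursor-like cells, 1 lower and 0 higher, the counts were 1 higher at Leiden resolution 0.5, 0 lower at resolution 2, 2 lower with haemoglobin, mitochondrial and ribosomal genes left out of the scaling, and 2 lower in cells with no Mki67 or Top2a UMI. Adding cluster 5, chosen after seeing the data, left 1 lower. In differentiating granule neuron-like cells, 1 lower, the count was 0 at resolution 2, 3 with doublets kept, 0 with 5 CPM added and 2 without cluster 22; resolution 0.5 named no such cluster and gave no value. In Atoh1-positive cells, 2 lower and 2 higher, it was 4 lower and 1 higher at 5000 UMIs, 5 lower with at least 2 Atoh1 UMIs, 1 lower in granule lineage-like clusters and 0 higher outside the mutant-dominated clusters. For most of these settings the share of all genes past 1.5-fold is not given here. The counts alone are therefore not read as results about the factors. The ratio of shares with an Atoh1 UMI, 0.496, was 0.437 unthinned and 0.728 at 2 UMIs. The lineage list, 17 lower and 0 higher, had 3 lower and 1 higher in precursor-like and 8 lower in neuron-like cells. The count of 7 factors highest in the last control state was the same under the 5 alternatives run. The share of all genes highest in that state is not given here, so the count cannot be set against it. For single factors, 197 values kept within their counting interval and 83 moved beyond it, with no called value changing sign. The cause of these changes was not tested. Depth limits Barhl2, Nhlh1 and Nhlh2 in the small mutant classes.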

Other observations

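The mutant-dominated clusters differed from each other in the factors. Cluster 33, with 178 mutant and 0 control cells, had Nhlh1 at 212 CPM, the highest of any cluster, beside Pax6 at 125 CPM and Neurod1 at 129 CPM, with Atoh1 at 1.17 CPM and Barhl1 at 3.51 CPM. Cluster 26, led by Tfap2d and Lhx9, held 1505 mutant and 243 control cells. Its Barhl1 was 168 against 219 CPM, its Neurod1 54.3 against 223 CPM and its Nhlh2 30.3 against 96.7 CPM. Cluster 13 had Zic1 at 758 CPM with Atoh1 at 17 CPM and Pax6 at 27.7 CPM.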
